A study of Mus musculus with 20 samples.

Results

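Mouse interscapular brown adipose tissue (iBAT) holds a small set of T lymphocytes that carry the mRNA of surface receptors acquired on activation. These cells were selected from the lineage-positive (Lin+) single-cell libraries of a study of cold-induced brown adipocyte formation, in 4 steps applied to the deposited values of each cell. A cell was kept if under 10% of its counts were mitochondrial, its total was under 15000 and it had 300 to 4000 detected genes. It was then required to hold a sum of at least 1 for Cd3d, Cd3e and Cd3g, a sum of at least 2 for Ctla4, Icos, Cxcr6, Pdcd1 and Foxp3, under 0.5 for Cd8a and Cd8b1, and under 1 for Cd79a, C1qa and C1qb. Of 54289 Lin+ cells kept, 600 passed, out of 3629 that met the CD3, Cd8 and other-cell limits. The working name of the selection was activated and regulatory T lymphocytes, and measured values chose its members.

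T lymphocytes recognise antigen through a receptor that signals through the CD3 chains. After activation they display costimulatory receptors such as ICOS and inhibitory ones such as CTLA-4 and PD-1, and many of those that stay in tissue carry the chemokine receptor CXCR6. FOXP3 is the transcription factor of regulatory T cells, which restrain other immune cells and in adipose tissue often carry the IL-33 receptor ST2, encoded by Il1rl1.

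The study compared RT housing (24 °C) with cold exposure at 6 °C for 4 days (COLD) and with 4 days of CL316,243 (CL), an agonist of the beta-3 adrenergic receptor infused at 0.75 nmol/hour by pump. Those groups were male C57BL/6J mice, and each gave 2 Lin+ libraries. A further line, of female mice, was Adrb1 fl/fl throughout and given tamoxifen, and was either Pdgfra-CreER -/- (WT) or Pdgfra-CreER +/- (KO), with 1 library per genotype at RT and 1 in the cold. The mice were 8 to 14 weeks old, and each library pooled the tissues of 3 to 4 of them, so the pool is the replicate here and p-values measure the spread between pools. Cre in the KO is driven from Pdgfra, a stromal gene, and the T cells described were not its target. The Lin+ fraction was separated magnetically with an antibody mix that includes anti-CD5, an antigen that T cells carry. The 2 RT libraries of the Adrb1 line were made with version 3 of the 10x kit and all others with version 2, and the methods add that RT and cold libraries of that line came from separate days, so there kit, day and temperature cannot be told apart.

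The 10 Lin+ libraries kept 2295 to 8901 cells each, with a median of 1864 to 4587 UMIs per cell. The targeted gene was read in Lin- cells with a Pdgfra UMI: Adrb1 gave 0 UMIs in 512 cells of the KO RT library and 0 in 603 of the KO cold library, where 3 UMIs would be 1.27 and 0.742 counts per 1000000 UMIs (CPM). The WT libraries gave 13.0 UMIs in 1800 cells at RT and 34.4 in 1718 cells in the cold. Any 2 Lin+ libraries shared at most 142 cell barcodes, 1.59%, and 0 barcodes were selected in 2 libraries. The second CL library stood apart in that it shared 1223 barcodes with the Lin- library of its own pool, 18.0% of the smaller library, against at most 2.96% in the other pools. Of its selected cells 1 had a shared barcode, and the selected cells held 884 CPM of 8 stromal genes, against 24.1 to 145 CPM in the other libraries. For CL, the number of genes called in marker-high cells and the shares are given also without it.

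The selected cells were 48 and 53 in the RT libraries of C57 mice, 62 and 56 in COLD, and 8 and 29 in CL. In the Adrb1 line they were 81 for WT RT, 116 for KO RT, 91 for WT cold and 56 for KO cold. The CL libraries therefore rest on the fewest cells, and the first of them on 8. Summed over the selected cells, a library held 17180 to 522100 UMIs, so that a single UMI was worth 1.92 to 58.2 CPM.

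Most of the cells were selected through Icos, and few through Foxp3. As a description of the selection, Icos (the inducible costimulator) was detected, with a corrected count of at least 0.5, in 487 of the 600 cells (81.2%), Ctla4 in 295 (49.2%), Cxcr6 in 239 (39.8%), Pdcd1 (which encodes PD-1) in 104 (17.3%) and Foxp3 in 74 (12.3%). A single marker was detected in 166 cells, 2 in 294, 3 in 116, 4 in 23 and all 5 in 1. The most frequent combination was Ctla4 with Icos, in 123 cells, followed by Icos alone in 110 and Icos with Cxcr6 in 102. Foxp3 and Il2ra, the high-affinity IL-2 receptor chain of regulatory T cells, were found together in 31 cells. Since Foxp3 was not detected in most of the cells, they are called marker-high T cells from here on, with no claim that they are regulatory.

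**Figure D1:**
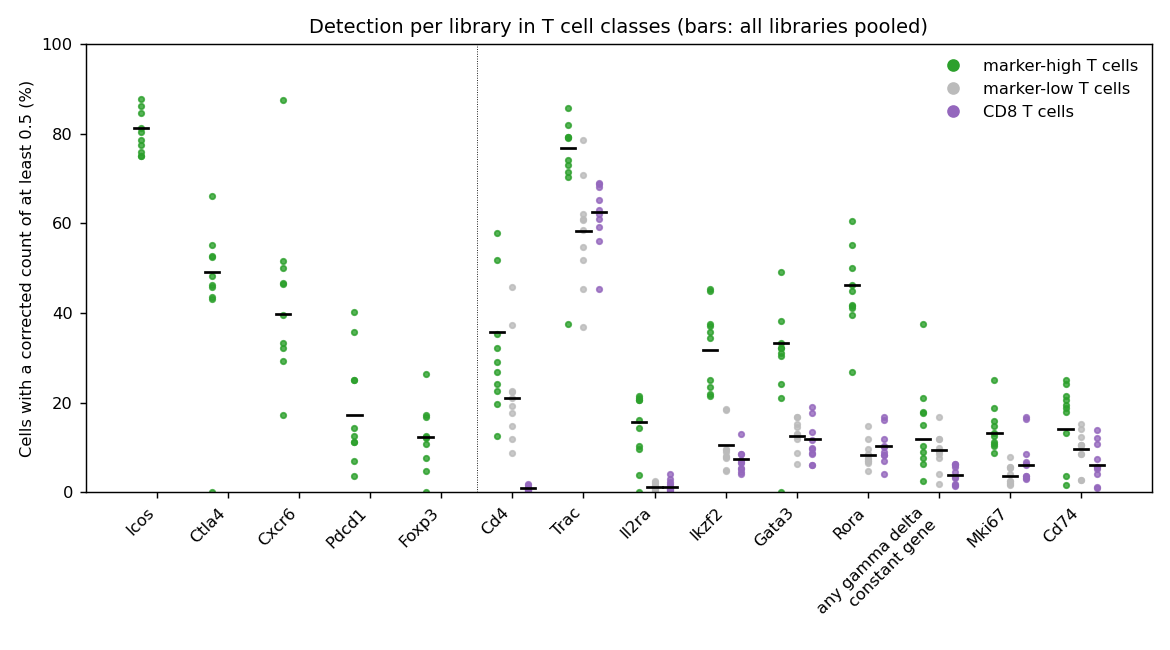
Percentage of cells (vertical axis) with a corrected count of at least 0.5 for each gene; points are Lin+ libraries and black bars all libraries pooled, for marker-high, marker-low and CD8 T cells. The 5 markers left of the dotted line are shown for marker-high cells alone, where Icos stands at 81.2% and Foxp3 at 12.3%, and Rora stands at 46.2% in marker-high against 8.35% in marker-low cells.

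Many cells lay just outside the limit of 2 marker counts. The deposited values had been reduced by the authors' correction for cell-free RNA, so that 97.6 to 99.5% of them were not whole numbers. As a result 314 CD3-positive Cd8-low cells had marker sums from 1.8 to just under 2 and stayed outside, 7 cells lay between 2 and 2.2, 198 between 2.5 and 3, and 395 at 3 or above. With every value rounded to the nearest whole number 889 cells would pass, 540 of them among the 600.

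The selection was compared with 1977 marker-low T cells, which met the same CD3, Cd8 and other-cell limits and had a marker sum under 0.5, and with 2117 CD8 T cells. Detection in the CD8 cells gives a background for genes they should lack: Foxp3 was detected in 1 of 2117 (0.0472%) and Cd4, the coreceptor of helper T cells, in 0.897%. Cd4 was detected in 35.8% of marker-high and 21.0% of marker-low cells. The median depth was 2941 UMIs in marker-high, 1944 in marker-low and 2676 in CD8 T cells. An alpha beta receptor constant gene was found in 97.0% of marker-high cells and a gamma delta constant gene in 12.0%. Mki67 or Top2a, genes of dividing cells, were found in 22.3% of marker-high, 7.59% of marker-low and 10.9% of CD8 cells. These shares are unthinned, and the depth of the classes differs as given.

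Some of the selected cells also held the RNA of antigen-presenting cells. At least 10 UMIs of macrophage, dendritic or B lymphocyte genes were present in 93 of the 600, called mixed cells below. They had a median of 8081 UMIs against 2563 in the other 507, and Cd74, the invariant chain of class II molecules, was detected in 84.9% of them against 1.18%. Of the 93, 41 were among the 6% of cells with the highest doublet scores of their library, against 2 of the 507. Summed over 10 dendritic genes, marker-high cells held 19400 and 12400 CPM in the RT libraries of C57 mice, 38700 and 34600 in COLD and 49000 and 20900 in CL. Once these cells were left out the sums were 147 and 80.6, 16.8 and 10.3, and 304 and 577 CPM. In the Adrb1 line the sums were 903 and 987 CPM at RT and 28400 and 17900 in the cold. The level was thus higher in the cold than at RT in every line, though kit and day also differed in the Adrb1 line. Results of treatment are given with and without the mixed cells. Counts by gene list without them come without the share over all genes, and no excess over that share is read from them. Beyond that, the part of antigen-presenting cells in them was not tested.

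Against marker-low T cells of the same libraries, marker-high T cells held more mRNA of the regulatory, type 2, type 17 and tissue-residency lists and less of the resting list. The contrast follows the marker limits, so its values are a description with no p. It used the 9 libraries with at least 10 cells of each class and left out the first CL library. Of 7123 genes, 451 were called higher (6.33%) and 568 lower (7.97%), 14.3% in all. Nothing is read from these counts or from the counts by list that follow, since the selection shapes both. The lists were also chosen with earlier results of these data known.

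Among the genes of regulatory T cells, Tnfrsf4 (OX40, a costimulatory receptor of the TNF receptor family) ran from 116 to 617 CPM in marker-high cells of the 9 libraries, with a median of 166, and from 5.52 to 43.5 CPM in marker-low cells. The ranges did not meet, and the log2 difference was 3.44 (SE 0.23). Il2ra stood at 10.1 to 146 CPM against 0 to 11.7 CPM, a log2 difference of 3.52 (SE 0.39), higher in 9 of 9 libraries. Ikzf2, which encodes the regulatory T cell factor Helios, differed by 1.83 (SE 0.19) and Tnfrsf18 (GITR) by 1.38 (SE 0.17) on the log2 scale. Of the 15 regulatory genes measured, 12 were called higher and 0 lower, with a median log2 difference of 1.46 against -0.02 over all genes. Cd4 differed by 0.14 (SE 0.14) and was higher in 6 of 9 libraries.

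The type 2 list named genes of tissue repair and of GATA3-driven T cells. Rora, a nuclear receptor of type 2 and type 17 lymphocytes, had 129 to 473 CPM in marker-high cells and 23.3 to 93.4 CPM in marker-low cells (log2 difference 2.39, SE 0.16), with no overlap. Areg, the growth factor amphiregulin, differed by 2.67 (SE 0.31), Maf by 2.09 (SE 0.23), Il1rl1 by 2.19 (SE 0.35) and Gata3 by 1.25 (SE 0.21). The first 2 of these were higher in 9 of 9 libraries and the other 2 in 8. In all, 9 of 13 genes were called higher, with a median of 1.43.

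Genes of gamma delta and IL-17-producing T cells were higher as well. Cd163l1, a scavenger receptor of gamma delta T cells, was read at up to 95.1 CPM in marker-high cells of the 9 libraries and at no more than 1.86 CPM in marker-low cells (log2 difference 5.42, SE 0.49). Tcrg-C1, a gamma chain constant gene, differed by 2.35 (SE 0.29), although its sequence is close to that of other gamma constant genes and its reads can be split among them. Il17a, the cytokine that names the type 17 response, was found in 9 of the 600 cells, in 0 of 1977 marker-low cells, which allows up to 0.152% of them to hold an Il17a UMI but sets no limit on cells that express the gene, and in 0 of 2117 CD8 cells. On summed counts it was at least 20.6-fold higher than the level 3 UMIs would give in marker-low cells. Of 9 genes of this list, 7 were called higher (median 1.60).

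**Figure D2:**
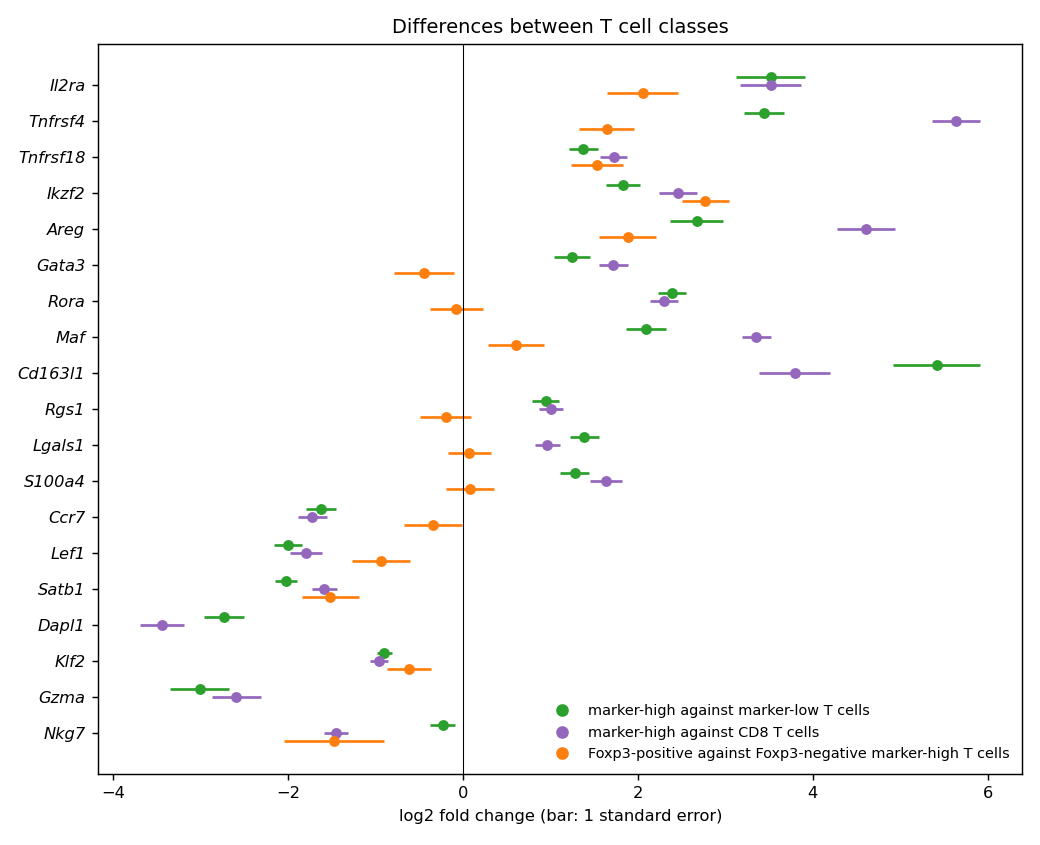
Log2 difference (horizontal axis, with standard error bars) of named genes between marker-high T cells and marker-low T cells, between marker-high and CD8 T cells, and between Foxp3-positive and Foxp3-negative marker-high cells. Tnfrsf4 lies at 3.44 against marker-low cells and at 5.64 against CD8 cells, and Ccr7, Lef1, Satb1, Dapl1 and Klf2 lie left of 0 in both of those contrasts.

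The resting and lymphoid-homing list lay on the other side in full: all 14 genes were called lower, with a median log2 difference of -1.70. Lef1, a transcription factor of naive T cells, ranged from 19.0 to 454 CPM in marker-high cells and from 255 to 1010 CPM in marker-low cells (log2 difference -2.00, SE 0.16), lower in 9 of 9 libraries. The lymph-node homing receptor Ccr7 differed by -1.62 (SE 0.17), Tcf7 by -1.21 (SE 0.12) and Klf2 by -0.90 (SE 0.09). Genes of cytotoxic lymphocytes split: Gzma (granzyme A) differed by -3.01 (SE 0.34) and Prf1 (perforin) by -2.87 (SE 0.32), while Ifng (interferon gamma) was 1.13 higher (SE 0.21) and Cxcr3 1.32 higher (SE 0.19). Of the 17 genes of the type 1 and cytotoxic list 4 were called higher and 5 lower. All 7 natural killer genes measured were lower (median -2.32), among them Ncr1, whose level in marker-low cells was 1.67 to 63.7 CPM. No limit on natural killer genes was set for marker-low cells. Summed over 8 such genes, marker-low cells held 102 to 1630 CPM in the 9 libraries and marker-high cells 18.0 to 248 CPM. The part of natural killer cells in these differences, Gzma and Prf1 included, was not tested.

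Genes of tissue-resident T cells and of division were also higher. S100a4, a calcium-binding protein of effector and memory T cells, had 610 to 1460 CPM in marker-high and 94.6 to 774 CPM in marker-low cells (log2 difference 1.28, SE 0.17). Of 16 residency genes 11 were called higher and 0 lower (median 0.79), and of 20 proliferation genes 10 were called higher and 0 lower (median 0.80). With both classes limited to cells of 1000 to 2500 UMIs the calls fell to 414, of which 363 were among the 646 of the original calls that could still be tested. In that fit 2 proliferation genes could be tested, Hmgb2 (0.55, higher) and Tubb5 (-0.72, called lower), so the count for that list was not checked at matched depth.

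Against CD8 T cells the same groups differed, with Cd4 added. Cd4 stood at 73.8 to 251 CPM in marker-high cells of the 9 libraries against 1.24 to 7.41 CPM (log2 difference 4.99), Tnfrsf4 differed by 5.64, Areg by 4.61, Tcrg-C1 by 4.24, Maf by 3.35 and Cd40lg, the helper ligand CD40L, by 3.22. Dapl1 differed by -3.44, Gzma by -2.59, Ccl5 by -1.66 and Nkg7 by -1.45. Of 6993 genes 737 were called higher (10.5%) and 745 lower (10.7%), 21.2% in all, again counts that the selection shapes. The regulatory list had 11 called higher and 1 lower of 15, the type 2 list 11 of 12 higher and the type 17 list 9 of 9 higher.

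Within the selection, cells with detected Foxp3 were compared with cells in which it was not detected. The latter, called Foxp3-negative, can include cells that express it. Only the second RT library of C57 mice and the WT and KO RT libraries had at least 10 cells of both kinds, so the comparison rests on those 3 and is given as a description. Of 11 regulatory genes 5 were called higher and 0 lower, with a median log2 difference of 1.06 against -0.03 over all genes. Ikzf2 was at 1260, 1460 and 1260 CPM in Foxp3-positive and 138, 190 and 222 CPM in Foxp3-negative cells (log2 difference 2.77, SE 0.27). Klrg1, a receptor of terminally differentiated T cells, differed by 2.73, Tnfrsf9 (4-1BB) by 3.17, Il1rl1 by 2.17, Areg by 1.89 and Il2ra by 2.06. The Foxp3-negative cells held Cd40lg at 138, 152 and 144 CPM, where the Foxp3-positive cells had 16.3, 0 and 0 CPM. Ifng was at 251, 315 and 230 CPM in Foxp3-negative and 15.6, 18.4 and 33.8 CPM in Foxp3-positive cells (log2 difference -3.52, SE 0.51). Tcf7 differed by -1.87, whereas Gata3 (-0.44, SE 0.34) was higher in Foxp3-positive cells of 1 library only. Over 2281 genes 27 were called higher (1.18%) and 14 lower (0.614%), 1.8% in all. DESeq2 called 11, 84 were called without the C57 library, and over all libraries 28.4% of the 74 Foxp3-positive against 13.7% of the 526 Foxp3-negative cells were mixed cells.

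The share of T cells that were marker-high was asked of each treatment. Because deeper cells reach 2 marker counts more often, the values of each cell were first rounded and thinned to 1000 UMIs, cells under that depth were left out, and all limits were applied anew. The cells counted are thus not the 600 above: in the second RT library of C57 mice the CD3-positive Cd8-low cells went from 493 to 526 and the marker-high cells from 53 to 42, and in the first CL library marker-high cells went from 8 to 11. Marker-high cells then made up 9.09% and 7.98% of CD3-positive Cd8-low cells in the RT libraries of C57 mice, 15.1% and 10.8% in COLD and 11.3% and 4.2% in CL. The COLD libraries lay above both RT libraries, by 4.42 points in the mean (RT 8.54% ± 0.782, COLD 13.0% ± 3.05, SD, n = 2 each). The two-sided exact permutation p was 0.333, the smallest that 2 against 2 libraries allow. The difference was 2.26 points without the first COLD library and 1.38 points with the gate on rounded values (exact p = 0.667). Without thinning the COLD shares of 21.6% and 13.97% overlapped the RT shares of 14.6% and 10.75% (5.11 points, exact p = 0.667). CL overlapped RT and differed by -0.766 points (exact p = 1.0), and its sign rested on single libraries, at -4.33 points without the first CL library and 2.8 points without the second. Unthinned, the CL shares of 6.67% and 9.70% lay below those RT shares, a difference of -4.49 points (exact p = 0.333). The CL difference was 0.305 points at 700 UMIs and -3.96 points with the gate on rounded values, so its sign also turned with depth. In the Adrb1 line the shares were 10.8% and 14.2% at RT for WT and KO, and 12.2% and 9.11% in the cold. Over the 4 RT and 4 cold libraries of the 3 lines the difference was 1.29 points (exact permutation p = 0.486). It was -1.84 points within the Adrb1 line, and -2.83 points over all 8 libraries without thinning, so its direction turned with both. The unthinned setting also lacks the rounding and the renewed limits, and their parts were not separated. With a library left out it ran from 0.187 points (the first COLD library of C57 mice) to 2.52 points (the KO RT library).

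**Figure D3:**
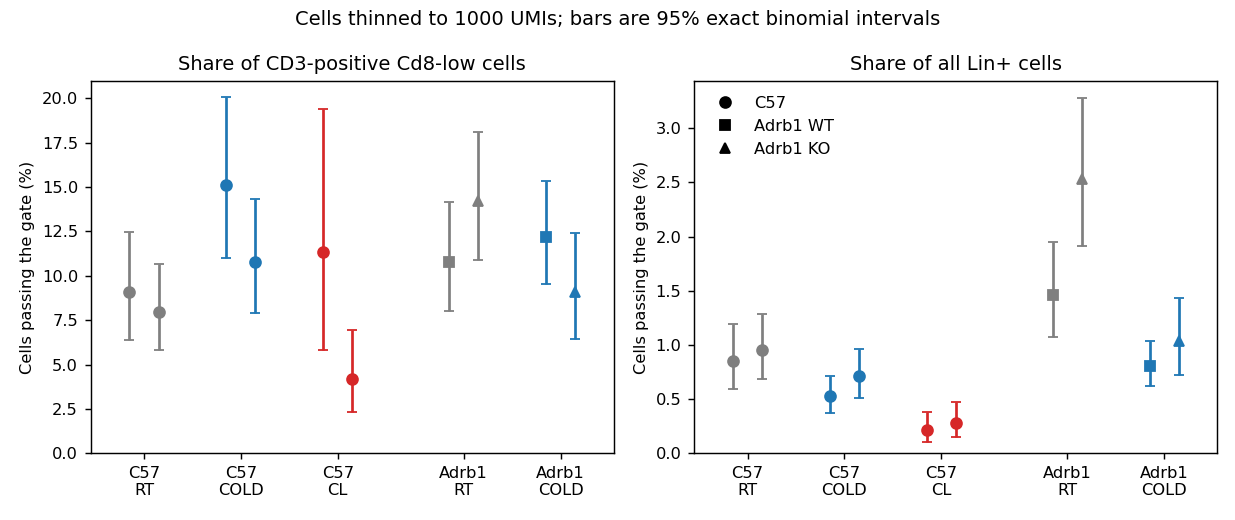
Marker-high T cells as a percentage of CD3-positive Cd8-low cells and of all Lin+ cells, per library (points), after thinning each cell to 1000 UMIs, with exact binomial 95% intervals as bars. The 2 COLD points lie at 15.1% and 10.8% of T cells, and the 2 CL points at 0.211% and 0.285% of Lin+ cells.

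As a share of all Lin+ cells of at least 1000 UMIs, marker-high cells gated after thinning were fewer in both treatments of C57 mice. The share was 0.853% and 0.954% at RT, 0.526% and 0.711% in COLD, and 0.211% and 0.285% in CL, so that neither treated group overlapped RT. The differences were -0.285 points for COLD and -0.655 points for CL (-0.692 without the second CL library), each with an exact permutation p of 0.333, the smallest possible. At a marker limit of 3 they were -0.0246 points for COLD, which then overlapped RT (exact p = 1.0), and -0.222 points for CL, and at 700 UMIs -0.131 and -0.32 points. In the Adrb1 line it was 1.47% and 2.53% at RT for WT and KO, and 0.81% and 1.04% in the cold. Over the 3 lines cold differed from RT by -0.679 points (p = 0.114, two-sided exact permutation test, where 0.0286 is the smallest possible). That test exchanged libraries across lines, which differed at RT, and the share was lower in the cold within each line. Without the KO RT library the difference over the 3 lines was -0.32 points, at 700 UMIs -0.23, at a marker limit of 3 -0.308 and without thinning -1.4 points. The denominator holds myeloid cells. With cells that carried genes of antigen-presenting cells left out of both numerator and denominator, the COLD difference was 1.46 points, the CL difference -1.78 points and the difference over 3 lines 0.339 points, so the cold differences turned.

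Cold exposure raised interferon-response genes in the marker-high T cells of C57 mice. The 6 C57 libraries were fitted together on counts summed per library, and of 3471 genes tested 21 were called higher and 9 lower in COLD than at RT (0.864% called, 0.605% higher and 0.259% lower) at an adjusted p under 0.05. When the first RT library was left out 0 genes were called higher. Of 28 interferon-response genes tested 10 were called higher and 0 lower, and 25 lay above 0, with a median log2 fold change of 1.61 against -0.01 over all genes tested. This list and the others were chosen with earlier results of these data known, so counts by list under treatment are descriptions. Groups of 2 libraries failed to overlap for 1592 of the 3471 genes (45.9%), so separation alone carries little.

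The genes induced by type I interferon share a sequence element in their promoters, the interferon-stimulated response element, to which complexes with IRF proteins bind. Its core was searched as GAAANNGAAA on both strands in the 250 bases before each RefSeq gene start. For 4 of the genes called higher in COLD, 60 bases of promoter (RefSeq, GRCm38.p6) around the match are printed. They read in the direction of the gene, so for genes on the minus strand the first letter has the highest coordinate. In capitals is 1 match or its reverse complement, to show the form it takes in each gene. The search found 3 matches upstream of Isg15, 2 each upstream of Ifit1 and Bst2 and 1 upstream of Rsad2, and those not in capitals can lie in the lower-case letters. Each window lies upstream of its gene and overlaps no annotated exon.
Isg15 (chr4:156200862-156200921, gene on the minus strand): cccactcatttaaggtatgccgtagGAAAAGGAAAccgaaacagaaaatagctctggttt
Ifit1 (chr19:34640760-34640819, gene on the plus strand): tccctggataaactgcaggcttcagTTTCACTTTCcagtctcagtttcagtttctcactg
Rsad2 (chr12:26456538-26456597, gene on the minus strand): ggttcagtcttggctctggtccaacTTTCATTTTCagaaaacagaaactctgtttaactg
Bst2 (chr8:71537568-71537627, gene on the minus strand): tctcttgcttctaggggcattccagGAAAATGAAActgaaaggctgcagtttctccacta
The letters were found in 936 of 27025 promoters (3.46%), in 120 of the 2760 genes tested here that had a promoter entry (4.35%), and in 13 of 23 promoters of the interferon list (56.5%). Among the interferon genes called higher 6 of 9 held a match (66.7%), and among those tested and not called 6 of 13 (46.2%).

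Irf7, the transcription factor that amplifies type I interferon production, was at 25.6 and 38.6 CPM at RT and at 587 and 299 CPM in COLD. The groups were far apart (log2 fold change 3.50, SE 0.49, adjusted p = 0.0131, edgeR's quasi-likelihood test with Benjamini-Hochberg adjustment, as for all adjusted p-values of treatments here). Without the mixed cells the log2 fold change was 2.96 (adjusted p = 0.015), and 11 of 13 alternative settings made the call.

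Isg15, a ubiquitin-like protein attached to other proteins during the response, rose from 134 and 92.7 CPM at RT to 501 and 577 CPM in COLD (log2 fold change 2.10, SE 0.34, adjusted p = 0.0158). Bst2 (tetherin, which holds budding virions at the cell surface) rose from 145 and 154 CPM to 589 and 653 CPM (1.88, SE 0.35, adjusted p = 0.0317). Slfn5, of the Schlafen family, rose from 18.7 and 24.4 CPM to 179 and 206 CPM (2.87, SE 0.47, adjusted p = 0.0158). For each of the 3 genes the gap between COLD and RT was wider than the spread within either group, and each was called again without the mixed cells.

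Members of the IFIT family, which bind foreign RNA, were near the floor at RT. Ifit3 was at 0 and 20.2 CPM there and at 116 and 298 CPM in COLD (log2 fold change 3.93, SE 0.74, adjusted p = 0.0317), and Ifit1 was at 0 and 20.2 CPM and at 97.7 and 264 CPM (3.73, SE 0.76, adjusted p = 0.0344). Rsad2 (viperin, an antiviral enzyme) had 0 UMIs in both RT libraries and 61.8 and 177 CPM in COLD, at least 13.8-fold higher than the 8.57 CPM that 3 UMIs over both RT libraries would give. The other list genes called higher were Oasl2 (log2 fold change 4.50), Usp18 (3.70) and Isg20 (2.96). Without the mixed cells Isg20 had an adjusted p of 0.072, and Rsad2, Oasl2 and Usp18 were too low to be tested.

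**Figure D4:**
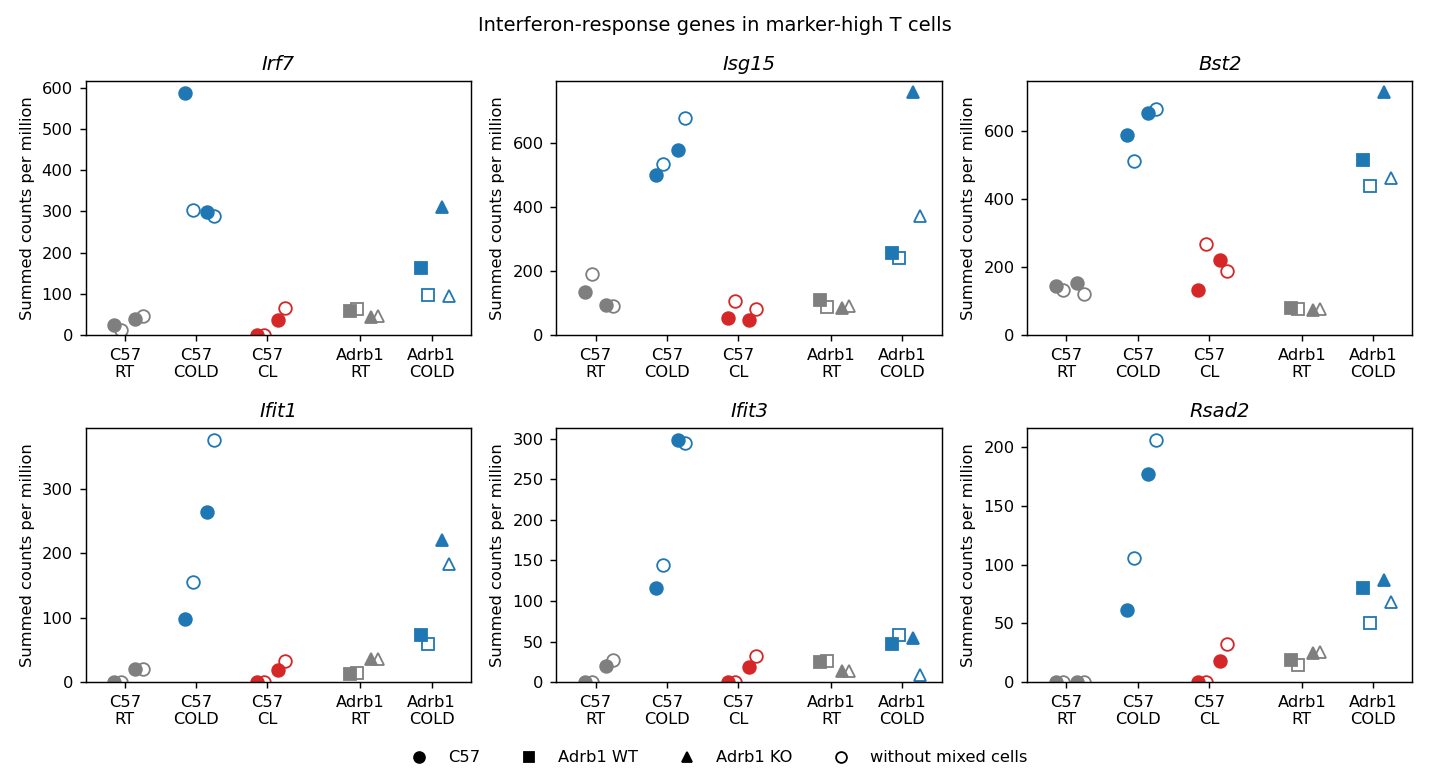
CPM (vertical axis, linear from 0) of Irf7, Isg15, Bst2, Ifit1, Ifit3 and Rsad2 in the marker-high T cells of each Lin+ library, by group. Filled points are all cells and open points leave out the mixed cells. Irf7 lies at 587 and 299 CPM in COLD and at 25.6 and 38.6 CPM at RT.

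Summed over the 30 interferon genes, the marker-high cells held 2530 and 3800 CPM at RT, against 8660 and 10100 CPM in COLD. Without the mixed cells the sums were 2860 and 4270 CPM at RT, against 9250 and 12100 CPM in COLD. In that fit 6 of 22 list genes were called higher (median 1.71 against 0.02 over all genes). The calls on these genes depended on the setting. Of 13 alternatives Irf7 was called in 11, Slfn5 in 9, Isg15, Bst2 and Ifit3 in 8 and Isg20 in 7, while Oasl2 was called in 3 of the 10 in which it could be tested. Without the mixed cells 15 genes were called, 8 of them among the 15 original calls that could be tested. DESeq2 called 1 gene, Irf7, and a marker limit of 3 left 1 gene called higher, again Irf7, and 4 lower. A gate applied after thinning called 0, and leaving out the first RT library left 0 higher and 3 lower, with Irf7 at a log2 fold change of 3.29 (adjusted p = 0.231).

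Outside the interferon list, Ccl4, a chemokine of activated lymphocytes and myeloid cells, was at 239 and 106 CPM at RT, against 655 and 1070 CPM in COLD (log2 fold change 2.14, SE 0.46, adjusted p = 0.0492; without mixed cells 3.05, adjusted p = 0.056). Ms4a4c (3.12), Cd72 (3.37), Ifi204 (4.43) and Rab7b (3.24) were also higher. Cd72 is a receptor of B cells and dendritic cells, and none of these 4 was expressed highly enough to be tested once the mixed cells were left out. Insig1, which restrains sterol synthesis, fell from 132 and 93.7 CPM to 16.8 and 17 CPM (-2.66, SE 0.52, adjusted p = 0.0317). It was called in 4 of 11 alternatives and was too low to be tested without the mixed cells. Retnla, a gene of alternatively activated macrophages, was at 113 and 2450 CPM at RT, against 0 and 3.96 CPM in COLD, and the second RT library set its level. Ribosomal copies such as Rps27rt and Rpl10-ps3 were among the genes called lower, and their counts can be split with near-identical genes.

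Ccl4 was the 1 gene called among 12 of the type 1 and cytotoxic list in C57 cold (median 0.41). With the mixed cells left out 1 of 9 genes of that list and 1 of 3 innate-like genes were called higher. None of 14 T cell receptor genes (median 0.01), 20 proliferation genes (-0.27), 11 regulatory genes (0.16) or 8 type 2 genes (-0.60) passed the test. With the replicate number as a block, pairing libraries of the same replicate experiment, the calls went from 30 to 45, and all 30 were kept.

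The 5 marker genes themselves can be tested only in a class that they did not define, the CD3-positive Cd8-low cells as a whole. There Pdcd1 rose in the cold, from 11.2 and 8.4 CPM at RT to 82.0 and 35.9 CPM in COLD (log2 fold change 2.33, SE 0.47, adjusted p = 0.042). It was 2.39 without the mixed cells, with an adjusted p of 0.065, and was called in 5 of 10 alternatives. Icos was at 184 and 138 CPM at RT, against 235 and 186 CPM in COLD, with a log2 fold change of 0.14 (adjusted p = 0.879). Ctla4 (0.22, adjusted p = 0.833), Cxcr6 (0.27, adjusted p = 0.817) and Foxp3 (-1.09, adjusted p = 0.424) also missed the threshold, which does not show that they held their level.

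In the same class 39 genes were called higher (0.501%) and 29 lower (0.373%) of 7780, 0.874% in all, 13 of them among the 30 interferon genes, where the median log2 fold change was 1.00. Of the 30, 11 were called without the mixed cells (median 1.16). Irf7 rose from 22 and 39.7 CPM to 341 and 207 CPM (2.85, SE 0.31, adjusted p = 0.00131). The count was 28 without the mixed cells, 18 without the first RT library, 27 without the first COLD library and 17 without the second. Pairing the libraries by replicate experiment raised it to 120, with all 68 kept. Genes of macrophages moved in the same class in both directions. Fcgr1, an antibody receptor, rose from 1.12 and 1.33 CPM to 36.3 and 33.8 CPM (adjusted p = 0.00249), while Retnla fell from 309 and 708 CPM to 2.37 and 5.27 CPM (adjusted p = 0.000126). Gpnmb and Trem2 were also called higher, and Lyz1 and Fn1 lower. Of 10 macrophage and 10 dendritic list genes 0 were called, and the dendritic sum went from 21300 and 15500 CPM to 31000 and 27900 CPM in COLD. The part of these cells in the calls was not tested. Whether the response of marker-high cells differed from that of marker-low cells was tested by an interaction term. It called 0 of 29 interferon genes (median difference 0.44) and 2 of 4359 genes in all (0.0459%), Apoe and Il1b, and with CL 1 higher and 1 lower (0.0229% each), Cst3 and Lyz1. With the mixed cells left out 0 of these 4 were called, while 1 other gene was called in COLD and 2 with CL. On simulated data the COLD term recovered 2 of 58 genes with a true log2 difference of 1, and 31 of 69 at 2. The lack of called interferon genes therefore does not show that marker-high and marker-low cells responded alike. The marker-low cells summed to 2090 and 2180 CPM of the interferon list at RT and 5160 and 4300 CPM in COLD.

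Over the 3 lines, with 4 cold and 4 RT libraries, the line as a covariate and the first CL library left out for its 8 cells, 160 genes were called higher (2.95%) and 115 lower (2.12%) of 5418, 5.08% in all. This count moved to 27 without the mixed cells. Within the Adrb1 line alone it was 2475, where kit and day also differed. That fit had a single library per genotype and temperature, so its calls do not measure the spread between replicate pools. The count over the 3 lines was between 46 and 58 when any 1 of the 4 libraries of that line was left out. It was 428, 179 and 132 without the second RT, first RT and second COLD libraries of C57 mice. Of the interferon list 13 of 30 were called higher (median 1.04 against -0.02), and 4 of 27 without the mixed cells. Bst2 was at 73.5 to 154 CPM in the 4 RT libraries and 513 to 714 CPM in the 4 cold ones (log2 fold change 2.53, adjusted p = 0.004). Isg15 (2.24, adjusted p = 0.00626) and Ifit1 (3.06, adjusted p = 0.00626) rose as well, and these 3 were called under all 16 alternatives. Summed over the list, the Adrb1 line went from 3750 CPM at RT to 4970 CPM in the cold for WT and from 3960 to 8480 CPM for KO. The sums without the mixed cells were 3610 and 4760 CPM for WT and 4040 and 6400 CPM for KO.

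Of 12 type 2 genes tested over the 3 lines 2 were called lower in the cold, Il1rl1 and Gata3, and 0 higher, with a median log2 fold change of -0.60. With the mixed cells left out 0 of 8 were called. Il1rl1 was at 71.0, 50.3, 209 and 61.2 CPM in the RT libraries and 4.6, 14.4, 13.2 and 23.6 CPM in the cold ones, without overlap (log2 fold change -2.69, SE 0.46, adjusted p = 0.0115). Without the mixed cells the fold change was -2.40 and the adjusted p 0.076. Within the Adrb1 line alone it was -2.74, from a single library per genotype and temperature. Kit and day changed there with temperature, so that value does not single out cold. Gata3, the transcription factor of type 2 T cells, was at 228, 161, 341 and 276 CPM at RT, against 78.5, 134, 118 and 108 CPM in the cold (-1.17, SE 0.29, adjusted p = 0.0436). The call on Gata3 was made in 5 of 16 alternatives and lost without the mixed cells (-0.88, adjusted p = 0.15). Areg missed the threshold (-1.23, adjusted p = 0.0584).

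Of 15 type 1 and cytotoxic genes tested over the 3 lines 2 were called higher in the cold, Ccl4 and Gzmb, and 0 lower (median log2 fold change 0.48). Of 6 innate-like genes 3 were called higher, Klrd1, Xcl1 and Fcer1g, a signalling chain that myeloid cells also carry, and 0 lower (median 1.61). With the mixed cells left out 1 of 15 and 2 of 7 were called higher, of 27 genes called in all. Natural killer genes, summed over 8 genes, moved with them in part. All marker-high cells held 157 and 238 CPM at RT against 248 and 175 CPM in COLD in C57 mice, which overlap. The sum went from 21.5 to 196 CPM in WT and from 46.8 to 80.1 CPM in KO. Without the mixed cells it went from 274 and 159 CPM to 478 and 369 CPM in COLD in C57 mice. In WT it then went from 25.2 to 221 CPM and in KO from 49.0 to 176 CPM, and 1 of 4 genes tested was called higher. The part of natural killer cells was not tested. Tbx21, which encodes the type 1 factor T-bet, had a log2 fold change of -1.20 (adjusted p = 0.073). Within the Adrb1 line alone it was -1.63. That fit had a single library per genotype and temperature, and kit and day changed there with temperature. Klrd1 (CD94, a receptor of natural killer and cytotoxic T cells) was at 97.0, 68.4, 18.6 and 43.5 CPM at RT, against 222, 309, 271 and 178 CPM in the cold, without overlap (log2 fold change 2.19, SE 0.39, adjusted p = 0.0121, and 1.67 with an adjusted p of 0.071 without the mixed cells). Xcl1, a chemokine for cross-presenting dendritic cells, was at 24.8 to 133 CPM at RT, against 42.1 to 266 CPM in the cold, overlapping (1.27, adjusted p = 0.0395). Gzmb, granzyme B, was at 12.5 to 185 CPM at RT, against 74.5 to 467 CPM in the cold, overlapping as well (2.00, adjusted p = 0.0495). Both calls were made again without the mixed cells, at 2.16 (adjusted p = 0.0056) and 2.60 (adjusted p = 0.017). Xcl1 was called in 8 and Gzmb in 7 of 16 alternatives. The type 17 list summed to 474 and 649 CPM at RT against 1040 and 662 CPM in COLD in C57 mice. It went from 409 to 941 CPM in WT and from 477 to 1240 CPM in KO, where kit and day also differed. Without the mixed cells C57 mice had 358 and 658 CPM against 1650 and 474 CPM, which overlap. The sum then went from 455 to 772 CPM in WT and from 461 to 1930 CPM in KO.

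**Figure D5:**
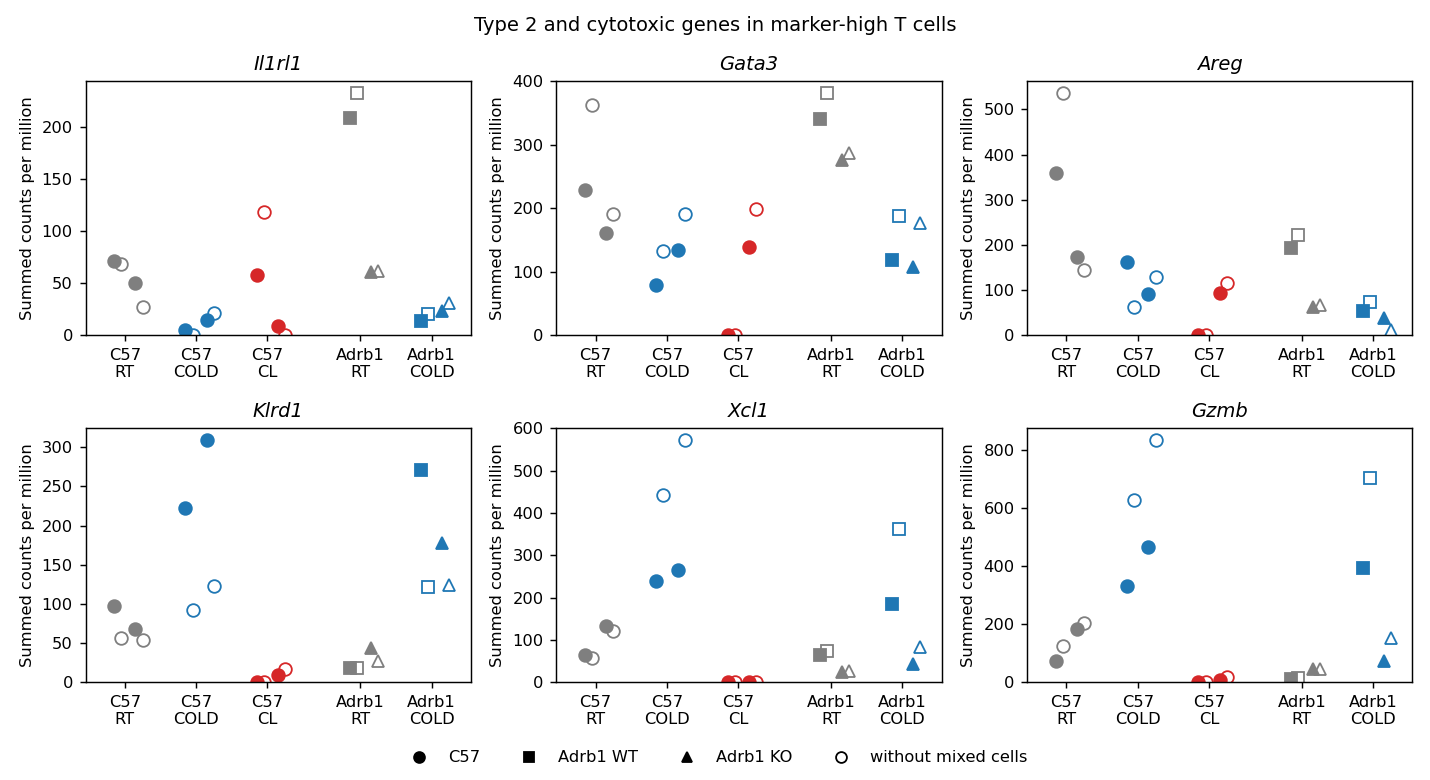
CPM (vertical axis, linear from 0) of Il1rl1, Gata3, Areg, Klrd1, Xcl1 and Gzmb in the marker-high T cells of each Lin+ library, by group. Filled points are all cells and open points leave out the mixed cells. Il1rl1 lies at 50.3 to 209 CPM in the RT libraries and 4.6 to 23.6 CPM in the cold ones.

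Of 13 resting and lymphoid-homing genes tested over the 3 lines 2 were called lower, Satb1 and Igfbp4, and 0 higher (median log2 fold change -0.87), and 0 of 11 were called without the mixed cells. Summed over the list, C57 mice had 1220 and 1310 CPM at RT against 1540 and 1610 CPM in COLD, and the Adrb1 line 4890 and 3910 CPM at RT against 2280 and 2430 CPM in the cold. With the mixed cells left out the sums were 1130 and 1530 CPM against 1700 and 1610 CPM in C57 mice, 5160 against 2830 CPM for WT and 3960 against 3850 CPM for KO. The sum was thus higher in COLD in C57 mice and lower in the cold in the Adrb1 line, where kit and day also differed, and for KO most of the difference was lost with the mixed cells. Satb1, a chromatin organiser of naive T cells, fell (log2 fold change -1.79, adjusted p = 0.0241) from 107, 72.8, 670 and 614 CPM to 46.0, 56.2, 93.0 and 134 CPM, groups that overlap and in which the RT libraries made with the version 3 kit were far above the others. Igfbp4 fell by 2.42 (adjusted p = 0.0294) and Tox, a factor of chronically stimulated T cells, by 1.33 (adjusted p = 0.0474) on the log2 scale. All 3 missed the threshold without the mixed cells, with adjusted p-values of 0.11, 0.16 and 0.12. Gpnmb, a glycoprotein of lipid-laden macrophages, was at 0 in the 4 RT libraries and at least 51.1-fold higher in the cold, and 4 of 9 dendritic genes were called higher in the same cells.

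CL treatment gave no called gene in marker-high T cells: 0 of 3471 (0.0%), with 184 at an unadjusted p under 0.05, 1 call by DESeq2, 2 with the replicate block and 27 without the second CL library. The 2 CL and 2 RT libraries failed to overlap for 35.5% of the genes. The interferon list had a median log2 fold change of 0.07, with 14 of 28 genes above 0. Of 12 type 1 and cytotoxic genes 0 were called and 3 lay above 0 (median log2 fold change -1.59 against -0.07 over all genes), and of 6 innate-like genes 0 were called (median -2.80). In the first CL library a single UMI was worth 58.2 CPM. Ccl5 was at 1430 and 2120 CPM at RT and 657 and 77.4 CPM with CL, and Nkg7 at 589 and 685 CPM and at 223 and 183 CPM (adjusted p = 0.412 for both). Ccl5 was called lower once the mixed cells were left out (log2 fold change -4.64, adjusted p = 0.0057). That fit lost 1 of the 8 cells of the first CL library, so a single UMI there was worth more than 58.2 CPM. In CD3-positive Cd8-low cells CL gave 1 call of 7780 (0.0129%), Retnla, against 17 when libraries were paired by replicate experiment.

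Genotype gave no called gene either. KO against WT, from 1 library of each at each temperature in the fit over all lines, called 0 of 5418 genes (0.0%), with 57 at an unadjusted p under 0.05 and 1 call by DESeq2. Areg was at 193 CPM in WT and 63.1 CPM in KO at RT, and cold libraries had 52.8 and 37.6 CPM in the same order (log2 fold change -1.19, adjusted p = 1). The interferon list had a median of 0.32, with 25 of 30 genes above 0 and 0 called. Adrb1 itself gave 0 or 1 UMI in the marker-high cells of each library, so its deletion could not be read in them.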

How the data were processed

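The authors aligned and counted reads with Cell Ranger 3.0.1 (mm10) and subtracted estimated cell-free RNA with SoupX 1.0.1, set on Fabp4 and Car3. The deposited matrices hold estimated counts (UMIs) per gene and cell after that subtraction, mostly not whole. The members and lists (24 lists, 318 genes) were chosen with earlier results of these data known. Here the values of all cells of a class were added within each library, rounded, and tested with edgeR 4.0.16 (R 4.3.3; TMM, filterByExpr, quasi-likelihood F test, two-sided, Benjamini-Hochberg over all genes tested). Classes were compared within libraries, with the 13 genes of the gate left out of calls. Libraries with under 10 cells of a class were left out, except in the fit over the 6 C57 libraries. The SE of a log2 fold change is its absolute value divided by the square root of the F statistic. CPM are per 1000000 UMIs of the class in a library. Doublets were not removed; Scrublet scores (scanpy 1.11.5) and the mixed cells enter as alternatives. Shares were compared by exact permutation over libraries, without regard to line, with cells under 1000 UMIs left out. Binomial intervals (95%, exact) and floors of 3 UMIs cover counting error only. The tests were checked on simulated data. At true log2 changes of 1 and 2, COLD against RT in marker-high cells recovered 14.5% and 67.6% of the changed genes. CL against RT recovered 4.84% and 50%. KO against WT recovered 12.5% and 53.4%, so a lack of calls does not show that genes held their level.

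Genes were named by rule: up to 10 per direction with the largest change in a treatment comparison, at least 20 CPM and no overlap with RT, and up to 12 per direction in a class comparison, at least 50 CPM and the same direction in every library, beside members of the lists. Genes named outside it were chosen after their values were seen. Same-numbered C57 libraries came from the same replicate experiment according to the study's methods. Over 3479 genes their deviations from the group means correlated by 0.0392 (RT and COLD), 0.0209 (RT and CL) and 0.0485 (COLD and CL), and the fit with the replicate block is an alternative. Other alternatives were DESeq2 1.42.0, RLE factors, no filter, leaving out each library, a marker limit of 3 and thinning. Leaving out the mixed cells, a gate on rounded values and the Adrb1 line alone were chosen after seeing the data. The fit of the Adrb1 line alone held a single library per genotype and temperature.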

Additional observations from a re-analysis of the deposited data

Results flagged for a closer look

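In 44 groups of 4 libraries a single library was looked for that stands apart (Dixon's test at 95%, which marks about 1 group in 20 by chance), and 5 were found. Among the RT libraries the values apart were Ifit3b at 3.16 CPM, Bex6 at 13.1 CPM and Il1rl1 at 209 CPM, the last in the WT RT library. Among the cold libraries they were Ptpn13 at 3.31 CPM and Fry at 13.1 CPM.

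4 genes responded differently in marker-high and marker-low T cells (interaction term, edgeR). In COLD the difference was 4.285 on the log2 scale for Apoe (adjusted p = 0.00384), which went from 29.1 and 8.67 CPM to 37.8 and 350.0 CPM in marker-high cells, and 3.224 for Il1b (adjusted p = 0.00384). Without the mixed cells Apoe was at 11.8 and 0.0 CPM in COLD, and the difference for Il1b turned to -0.152. With CL it was 2.861 for Cst3 (adjusted p = 0.00663) and -11.380 for Lyz1 (adjusted p = 0.000658). Lyz1 had 2.95 and 205 UMIs in the RT libraries and 0 in both CL libraries, so its fitted value depends on the prior count and is no bound. The difference for Cst3 was 0.168 (adjusted p = 1) without the mixed cells, Lyz1 was too low to be tested, and 0 of the 4 were called. DESeq2 called 0 genes with CL. All 4 are genes of macrophages and dendritic cells, whose part in these differences was not tested.

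In the Lin- libraries, which the comparisons did not use, 92 of 65179 kept cells passed the same limits, 1 of them with Foxp3.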

How the results depend on the processing

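For COLD in marker-high cells the 30 calls became 1 by DESeq2, 69 with no filter on low counts, 13 without the highest doublet scores, 15 without mixed cells, 5 at a marker limit of 3, 0 with the gate after thinning, and 3 to 49 with a library left out, of which 0 were higher without the first RT library. For CL the 0 calls became 1, 27, 2 (no mixed cells), 7 (limit of 3), 2 (rounded gate), 2 (replicate block) and 2 to 27. In CD3-positive Cd8-low cells the 68 calls in COLD became 288 with no filter, 28 without mixed cells, 120 with the replicate block and 17 to 49 with a library left out. The 1 call in CL became 2 by DESeq2, 114 with no filter, 3 without the highest doublet scores, 7 without mixed cells, 17 with the block and 4 to 57. Over 3 lines the 275 calls became 118 by DESeq2, 685 with no filter, 56 without the highest doublet scores, 27 without mixed cells, 443 with the rounded gate, 2475 in the Adrb1 line alone and 46 to 428 with a library left out. KO against WT gave 1 by DESeq2, 11 with no filter and 0 to 6 with a library left out. The response differences gave 1 (COLD) and 0 (CL) by DESeq2, 7 and 18 with no filter, 1 in COLD without mixed cells, 1 in CL without the highest doublet scores, and 3 to 10 and 0 to 17 with a library left out. Calls against marker-low and CD8 cells were 414 and 431 among cells of 1000 to 2500 UMIs. For Foxp3-positive cells they were 11 by DESeq2, 132 with no filter and 35 to 84 with a library left out, and the depth-limited fit was not run, since 0 libraries had enough cells.

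The share of Lin+ cells differed in COLD by -0.131 points at 700 UMIs, -0.0246 at a limit of 3, 1.46 without mixed cells and -0.557 with the rounded gate. In CL it differed by -0.807 unthinned, -0.32, -0.222, -1.78 and -1.28, and over 3 lines by 0.339 and -1.73 in the last 2 settings. The share of T cells over 3 lines differed by -2.83 unthinned, -5.47 with the rounded gate and -1.84 in the Adrb1 line.

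These genes turned sign: without mixed cells Il1b (-0.152, response difference), Lgals3 (-0.976, cold over 3 lines), Fcer1g (-0.015) and Tyrobp (-0.355, both against CD8 cells); among cells of 1000 to 2500 UMIs Junb (0.032, against marker-low), Cd27 (0.018), Ifi206 (0.172) and Tgfbr2 (0.123, against CD8). The causes were not tested beyond what each setting removes. The replicate block was fitted only for COLD and CL in the 2 classes of C57 cells above. Precision was limited by 2 pools per group and by the 8 cells of the first CL library.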
